A study of Rattus norvegicus with 26 samples.

Results

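Genes counted among the core regulators of the cardiac lineage were listed by name. They are Gata4, Gata6, Nkx2-5, Tbx5, Tbx20, Hand2, Mef2a, Mef2c, Srf and Myocd. Of these 10 genes, 8 have a named probe on the Illumina RatRef-12 array, out of 13337 genes with a named probe, and each of the 8 is measured by 1 probe. Mef2a and Mef2c have no probe under these names in the array annotation and are named only. RNA of hearts of male rats was measured in 4 groups, on 1 array per animal: SHRSP at week 14 (7 arrays), SHRSP at E20 (4 arrays), F344 at week 14 (8 arrays) and F344 at E20 (7 arrays). SHRSP is the stroke-prone spontaneously hypertensive rat, inbred for hypertension and prone to a thickened left ventricle, and F344 (Fischer) is a normotensive inbred strain whose hearts are light. E20 is day 20 of fetal development. The labels name no treatment and no introduced allele in any group, and each strain stands for 1 inbred colony. The study asked whether expression differs between the fetal and the adult heart in another way in SHRSP than in F344. According to its methods, adult RNA was extracted by TRIzol from the left ventricular free wall and fetal RNA by a column kit from hearts freed of their atria, while the labels give whole heart and TRIzol for all fetal samples. The methods also state that adults were killed under ketamine and xylazine, whereas fetuses were decapitated and their mothers were given isoflurane. Stage, dissected tissue, RNA kit, anaesthesia and manner of killing cannot be told apart in the comparisons of week 14 with E20.

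The transcription factors listed form a network that specifies and maintains cardiac muscle. Gata4 and Gata6 are zinc finger proteins that bind GATA motifs, Nkx2-5 is a homeodomain protein, Tbx5 and Tbx20 are T-box factors, and Hand2 is a basic helix-loop-helix factor of the right ventricle and outflow tract. Srf and the Mef2 proteins are MADS-box factors. Srf binds CArG boxes in promoters of muscle and growth response genes, and myocardin (Myocd) is a coactivator that has no strong DNA binding of its own and acts through Srf.

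Values are log2 intensities after quantile normalization, on a scale where 22523 probes lie between 6.64 and 15.53 with a median of 7.16. Arrays with a correlation of 0.95 or less within their group had been removed by the authors, and those left correlated with r of at least 0.9802 within groups. The summed linear intensity of the 10 measured cardiomyocyte markers was 184000 to 207000 in SHRSP at week 14 and 127000 to 158000 in SHRSP at E20. In F344 it was 171000 to 189000 at week 14 and 132000 to 178000 at E20. The sum rests on its brightest genes, and not every marker was bright. Ryr2 averaged 7.67 in SHRSP at E20 and 7.81 in F344 at E20. A probe was called at an adjusted p under 0.05 in limma's moderated test, with p-values adjusted over all 22523 probes by the method of Benjamini & Hochberg. Differences are week 14 minus E20 or SHRSP minus F344 throughout. In heart tissue, fewer cells of a type and less RNA per cell cannot be told apart.

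Srf is the member with the widest difference between groups, so its own promoter is shown. Short windows follow from promoters of genes on the target and cofactor lists below that were measured on the same arrays. They were picked because they hold a CArG box. The RefSeq promoter of Srf (GRCr8, chr9:21923826-21924125, plus strand, 250 bases before the start site and 50 after it) holds 2 CArG boxes, given in capitals, which begin 81 and 61 bases before the start site.
Srf: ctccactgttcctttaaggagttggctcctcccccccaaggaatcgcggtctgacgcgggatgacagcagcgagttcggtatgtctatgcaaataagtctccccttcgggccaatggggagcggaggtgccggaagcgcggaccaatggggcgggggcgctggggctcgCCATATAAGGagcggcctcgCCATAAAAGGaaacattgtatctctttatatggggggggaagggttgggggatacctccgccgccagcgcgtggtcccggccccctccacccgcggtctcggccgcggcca
Windows with 10 bases on either side of a CArG box follow for skeletal alpha-actin (Acta1, chr19:68784269-68784298, minus strand), cardiac alpha-actin (Actc1, chr3:121271806-121271835, minus strand), the ventricular myosin light chain Myl3 (chr8:119616987-119617016, plus strand), the immediate early gene Egr1 (chr18:26736963-26736992, plus strand) and the LIM-domain cofactor Fhl2 (chr9:52923365-52923394, minus strand).
Acta1: tgcccaacacCCAAATATGGcttgggaagg
Actc1: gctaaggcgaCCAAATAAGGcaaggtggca
Myl3: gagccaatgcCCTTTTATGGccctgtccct
Egr1: gtcggtccttCCATATTAGGgcttcctgct
Fhl2: gcgcgtgtgtCCTTATATGGtcaaatgact
The box shown begins 94 bases before the start site in Acta1, 97 in Myl3, 105 in Egr1 and 58 in Fhl2, and 2 bases after it in Actc1. Egr1 has another box 83 bases before the start site, and Fhl2 has another in a second promoter window, 95 bases before that start site. A CArG box is present in 1.64% of the 33469 RefSeq promoter windows of this length. Counted by gene, it is in 3 of 24 cardiac targets with a window and in 3 of 14 smooth muscle and immediate early targets of Srf. Of 23 cofactors with a window, 1 has a box. Of the 10 listed transcription factors, 7 have a promoter window in the table used, and among these 7 only Srf has a CArG box. A GATA motif (A or T, then GATA, then A or G) is in the windows of Hand2 and Tbx5 and in 30.3% of all windows. A T-box half-site (AGGTGT) is in the window of Gata6 and in 13.6% of all windows, and a MEF2 site is in the window of Mef2a and in 3.29% of all windows. The Nkx2-5 site searched (TNAAGTG) is in none of the 7 windows and in 11.5% of all windows. These are matches of letters on both strands and were not tested as binding sites.

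Between week 14 and E20, Srf, Gata4 and Nkx2-5 were lower at week 14 in both strains and Hand2 was higher in both, while Tbx5 was higher in SHRSP and Myocd lower in F344. In SHRSP, 2 of the 8 measured members were higher at week 14 and 3 were lower, and 32.7% of all probes passed in either direction, 15.7% higher and 17.0% lower. In F344, 1 was higher and 4 were lower, where 35.7% of all probes passed, 17.2% higher and 18.6% lower. Among the 11261 probes above the median intensity, where 7 of the 8 members lie, 60.8% passed in SHRSP and 64.0% in F344, so the share of members called is near that of bright probes. No member passed the fold limit of the study's methods, a log2 fold change of 1.5, in any comparison. Of all probes 2.10% did so for stage in SHRSP, 1.97% for stage in F344, 0.200% between strains at week 14, 0.124% between strains at E20 and 0.0666% in the interaction. The plot of all arrays shows that Srf and Gata4 do not overlap between the stages in either strain, Nkx2-5 does not in F344 and Tbx5 does not in SHRSP. The share of all probes without overlap was not counted in any comparison. A lack of overlap is therefore not shown to be particular to the genes named here or below.

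**Figure D1:**
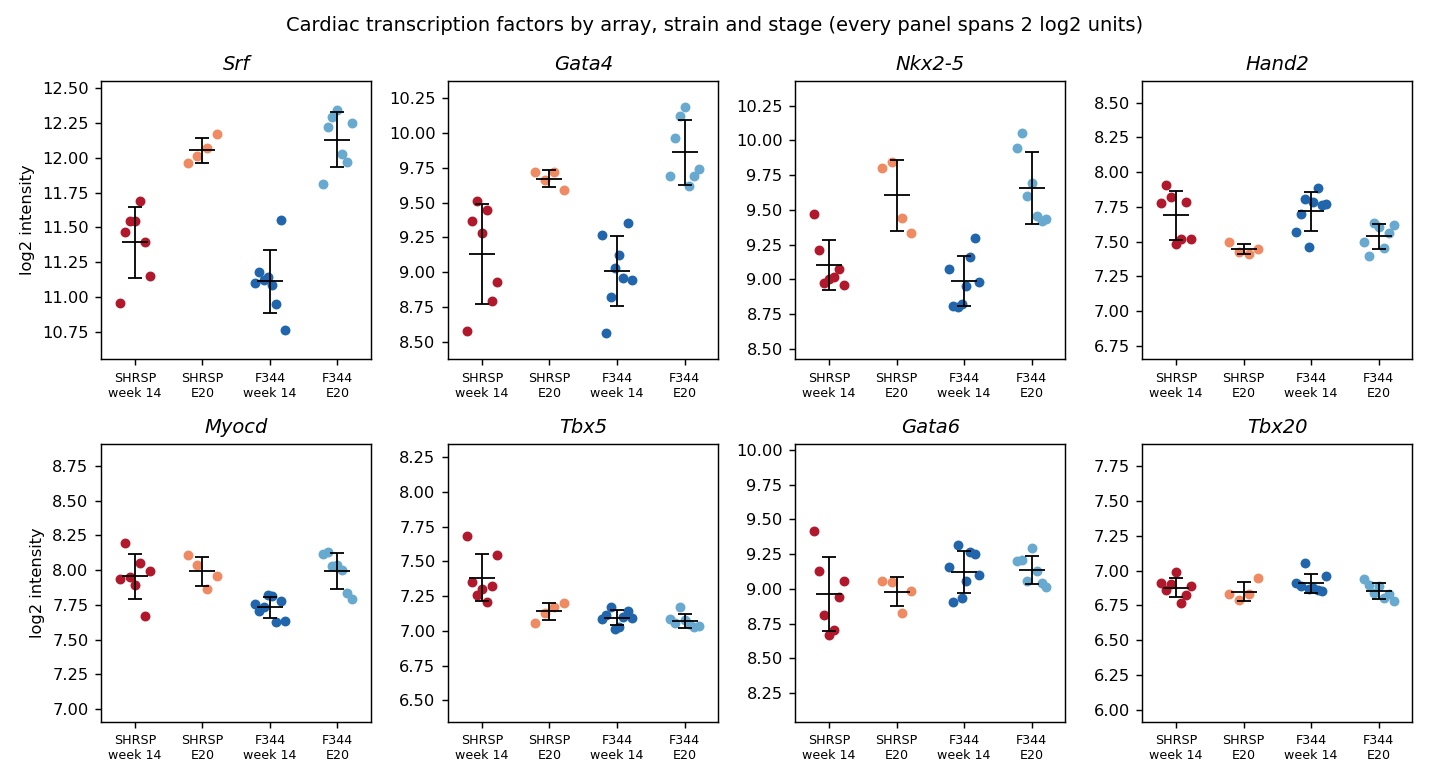
Log2 intensity of the 8 measured cardiac transcription factors on each array (points) in SHRSP week 14, SHRSP E20, F344 week 14 and F344 E20, with the mean ± SD of each group in black. Srf lies between 10.96 and 11.69 in SHRSP at week 14, below all SHRSP arrays at E20, and Tbx5 in SHRSP at week 14 lies above all other groups.

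Srf had the largest stage difference of the members in both strains. Its log2 intensity ran from 10.96 to 11.69 with a median of 11.46 in SHRSP at week 14, against 11.96, 12.01, 12.07 and 12.17 on the 4 arrays of SHRSP at E20. In F344 it ran from 10.76 to 11.56 with a median of 11.11 at week 14, against 11.82 to 12.35 with a median of 12.22 at E20. All week 14 arrays lay below all E20 arrays of the same strain. The log2 fold change was -0.66 ± 0.126 (SE, adjusted p = 0.000121) in SHRSP, a linear fold of 0.633, and -1.02 ± 0.104 (adjusted p = 5.95e-09) in F344, a linear fold of 0.493. Between the strains at week 14, Srf averaged 11.39 ± 0.255 in SHRSP and 11.11 ± 0.224 in F344 (SD), a difference of 0.28 ± 0.104 (SE) that did not pass (adjusted p = 0.103). It passed without the first SHRSP array of week 14 (0.36, adjusted p = 0.0196), which had the lowest Srf value of its group, and without the seventh F344 array of week 14 (0.35, adjusted p = 0.0212), which had the highest.

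By the likeness of the whole pattern over 26 arrays, Srf could be set against 13336 other named genes, since it is the only member whose group means span at least 1 log2 unit (1.02). The genes with the smallest root mean square difference from Srf, each centred on its own mean, were Actl6a (0.186), a subunit of chromatin remodelling complexes of the BAF type, Ybx3 (0.187), a Y-box protein that binds nucleic acids, and Tnfrsf11b (0.187), the decoy receptor osteoprotegerin. These differences are smaller than the SD of Srf itself over the 26 arrays (0.49). Actl6a averaged 9.34 in SHRSP at week 14, 9.91 in SHRSP at E20, 9.30 in F344 at week 14 and 10.05 in F344 at E20.

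Myocd, the coactivator of Srf, was higher in SHRSP than in F344 at week 14, while at E20 the difference was -0.002 with a 95% interval of -0.15 to 0.15. At week 14 it ran from 7.67 to 8.19 with a median of 7.95 in SHRSP and from 7.62 to 7.82 with a median of 7.74 in F344. Of the 7 SHRSP arrays, 6 were above the highest F344 array. At E20 the values were 8.11, 8.04, 7.86 and 7.96 in SHRSP, against 7.79 to 8.13 with a median of 8.03 in F344. The difference between the strains at week 14 was 0.22 ± 0.061 (SE, adjusted p = 0.0178), a linear fold of 1.17, and did not pass without the second SHRSP array of week 14 (0.18, adjusted p = 0.0554) or with a plain, unmoderated t-test per probe (adjusted p = 0.0592). Myocd was lower at week 14 than at E20 in F344 (-0.26 ± 0.061, adjusted p = 0.00108), with 6 of 8 week 14 arrays below the lowest E20 array. In SHRSP the stage difference was -0.04 ± 0.074 (adjusted p = 0.778), with a 95% interval of -0.19 to 0.12.

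Gata4, a zinc finger factor that acts with Nkx2-5, Tbx5 and Srf on cardiac promoters, was lower at week 14 in both strains. It ran from 8.58 to 9.51 with a median of 9.28 in SHRSP at week 14, against 9.72, 9.66, 9.72 and 9.59 in SHRSP at E20. In F344 it ran from 8.56 to 9.35 with a median of 8.99 at week 14, against 9.62 to 10.19 with a median of 9.74 at E20. The stages did not overlap in either strain. The log2 fold change was -0.54 ± 0.157 (adjusted p = 0.00763) in SHRSP and -0.86 ± 0.13 (adjusted p = 4.48e-06) in F344. With the plain t-test the SHRSP value did not pass (adjusted p = 0.0552). Between strains Gata4 differed by 0.12 ± 0.13 at week 14 (adjusted p = 0.716) and by -0.19 ± 0.157 at E20 (adjusted p = 0.811).

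Gata6, the second GATA factor of the list, passed in no comparison. It ran from 8.67 to 9.42 with a median of 8.95 in SHRSP at week 14, was 9.06, 9.05, 8.83 and 8.99 in SHRSP at E20, and averaged 9.12 ± 0.152 in F344 at week 14 and 9.14 ± 0.102 in F344 at E20 (SD). The stage difference was -0.02 in SHRSP (95% interval -0.23 to 0.20) and -0.01 in F344 (-0.19 to 0.17), so that changes of the size seen for Gata4 in F344 lie outside both intervals. SHRSP minus F344 was -0.16 ± 0.086 at week 14 (adjusted p = 0.342) and -0.16 ± 0.104 at E20 (adjusted p = 0.7). Without the first SHRSP array of week 14, whose Gata6 value of 9.42 was the highest of all arrays, the week 14 difference was -0.24 (adjusted p = 0.0459).

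Nkx2-5, the homeodomain factor that marks cardiac precursors and cardiomyocytes, followed the same direction as Gata4. It ran from 8.96 to 9.47 with a median of 9.02 in SHRSP at week 14, against 9.80, 9.85, 9.44 and 9.33 in SHRSP at E20. One SHRSP array of week 14, the first, reached into the fetal range, and the other 6 lay below it. In F344 it ran from 8.80 to 9.30 with a median of 8.97 at week 14, against 9.42 to 10.05 with a median of 9.60 at E20, with no overlap. The log2 fold change was -0.50 ± 0.127 (adjusted p = 0.00256) in SHRSP and -0.67 ± 0.105 (adjusted p = 7.4e-06) in F344. SHRSP minus F344 was 0.12 ± 0.105 at week 14 (adjusted p = 0.656) and -0.05 ± 0.127 at E20 (adjusted p = 0.971).

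Tbx5, a T-box factor known for its role in septation and in the conduction system, was higher in SHRSP at week 14 than in any other group. It ran from 7.21 to 7.68 with a median of 7.33 in SHRSP at week 14, against 7.06, 7.13, 7.17 and 7.20 in SHRSP at E20 and 7.01 to 7.17 with a median of 7.10 in F344 at week 14. In F344 at E20 it ran from 7.03 to 7.17 with a median of 7.06. All 7 SHRSP arrays of week 14 were above every array of the other groups. At week 14 SHRSP exceeded F344 by 0.29 ± 0.05 (SE, adjusted p = 0.000157), a linear fold of 1.22, and SHRSP at week 14 exceeded SHRSP at E20 by 0.24 ± 0.061 (adjusted p = 0.00231). The second of these did not pass with the plain t-test (adjusted p = 0.0741). In F344 the stage difference was 0.02 ± 0.05 (adjusted p = 0.807). The probe is dim, with 51.4% of all probes below it in mean intensity.

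Tbx20, a T-box factor of the embryonic heart and adult cardiomyocytes, stood at the lower end of the scale. Its values lay between 6.77 and 7.06 on all 26 arrays and 1.38% of probes had a lower mean, so the probe gives little room to see a difference. The comparisons gave 0.03 ± 0.042 for week 14 minus E20 in SHRSP, 0.05 ± 0.035 in F344, -0.03 ± 0.035 for SHRSP minus F344 at week 14 and -0.01 ± 0.042 at E20 (SE), with adjusted p from 0.259 to 0.992.

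Hand2 was higher at week 14 in both strains. It ran from 7.49 to 7.91 with a median of 7.78 in SHRSP at week 14, against 7.50, 7.42, 7.41 and 7.45 in SHRSP at E20. In F344 it ran from 7.46 to 7.89 with a median of 7.77 at week 14, against 7.40 to 7.63 with a median of 7.56 at E20. The stages overlapped in both strains, with 6 of 7 SHRSP arrays and 6 of 8 F344 arrays of week 14 above the highest fetal array. The log2 fold change was 0.24 ± 0.078 (adjusted p = 0.0158) in SHRSP and 0.18 ± 0.064 (adjusted p = 0.0296) in F344. The F344 value lies close to the threshold. Leaving out any of 7 single arrays put its adjusted p between 0.0505 and 0.0725, with fold changes of 0.155 to 0.173. The SHRSP value did not pass with the plain t-test (adjusted p = 0.0737). Between strains Hand2 differed by -0.03 ± 0.064 at week 14 and by -0.09 ± 0.078 at E20 (adjusted p = 0.89 and 0.811).

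**Figure D2:**
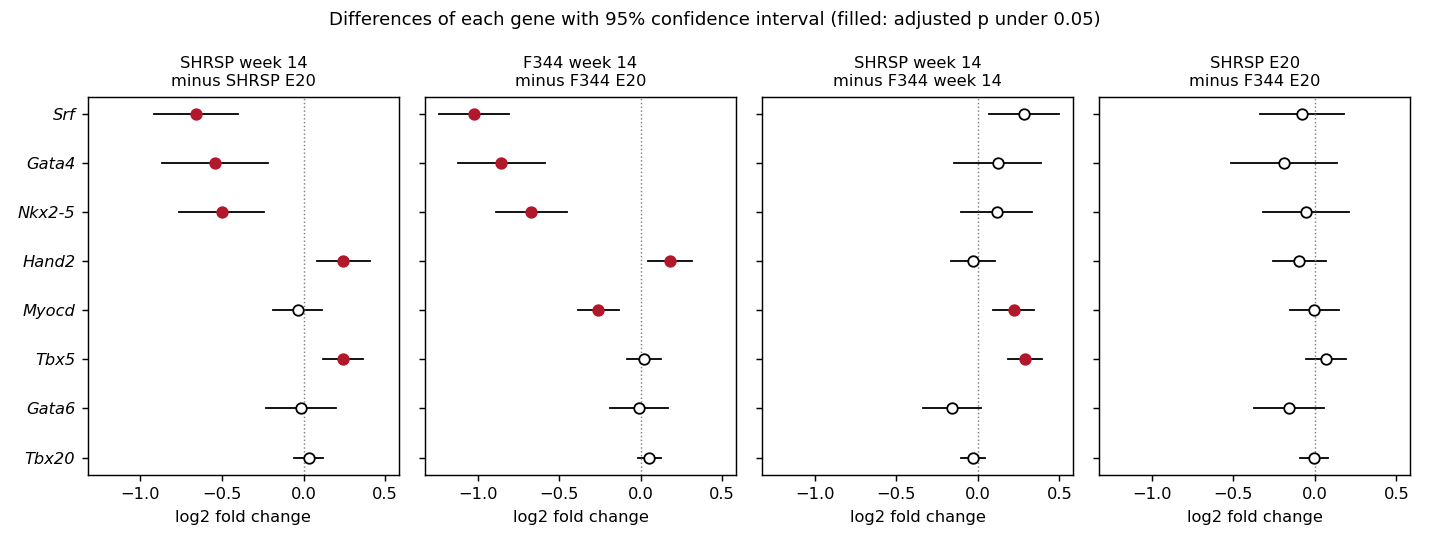
Log2 fold change of each of the 8 measured members (points) with its 95% confidence interval (lines) for week 14 minus E20 in SHRSP and in F344 and for SHRSP minus F344 at week 14 and at E20. Filled points have an adjusted p under 0.05: 5 members in each stage comparison, 2 at week 14 and 0 at E20.

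Between the strains, Tbx5 and Myocd were higher in SHRSP at week 14, and no member passed at E20. At week 14, 2 of 8 members were higher and 0 lower. Of all probes 8.95% passed, 4.49% higher and 4.46% lower, and of those above the median intensity 18.6%. The count of members was 4 without the first SHRSP array of week 14, where Srf and Gata6 also passed, and 1 without the second SHRSP array of week 14. At E20, 0 of 8 members passed in limma, 0 had an unadjusted p under 0.05 and 0 passed with the plain t-test, where 3.21% of all probes passed, 1.55% higher and 1.66% lower. The largest fetal difference was that of Gata4, with an interval of -0.51 to 0.14.

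The difference between the strains in their stage difference was tested as an interaction, coded as week 14 minus E20 in SHRSP minus the same in F344. In limma 0 of 8 members passed, 3 had an unadjusted p under 0.05, and 2.96% of all probes and 6.46% of those above the median intensity passed. Of all probes 1.94% passed upward and 1.02% downward. The values nearest to the threshold were 0.22 ± 0.079 for Tbx5 (SE, adjusted p = 0.174), 0.22 ± 0.095 for Myocd (adjusted p = 0.32) and 0.36 ± 0.163 for Srf (adjusted p = 0.362). Thus the calls of Tbx5 in SHRSP alone and of Myocd in F344 alone are not shown to differ between the strains. The median interaction of the 8 members was 0.20, against -0.0003 over all probes.

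Related transcription factors of the heart, a list of 40 genes of which 32 were measured, moved with stage in both directions. In SHRSP 3 were higher and 11 lower at week 14, with a median log2 fold change of -0.04, and in F344 also 3 and 11, with a median of -0.04, against medians of 0.0043 and 0.0046 over all probes. Of all probes, 32.7% passed in SHRSP and 35.7% in F344, and of those above the median intensity 60.8% and 64.0%. No test of the list's direction was made. Irx4, a homeobox factor of the ventricle, averaged 9.30 ± 0.255 in SHRSP at week 14 and 11.17 ± 0.226 in SHRSP at E20 (SD), a difference of -1.87, and fell by 1.35 in F344. Hey2, a repressor of the compact ventricular wall, fell by 1.34 in SHRSP and 1.32 in F344, and Tcf21, a factor of epicardial cells and fibroblasts, fell by 1.17 in SHRSP and 0.89 in F344. Gata5, a relative of Gata4, fell by 0.77 in SHRSP and 0.56 in F344, and Tbx18, a T-box factor of the epicardium, fell by 0.25 and 0.26. Klf15, a factor that restrains hypertrophic growth, was higher at week 14 by 0.73 in SHRSP and 1.19 in F344, and Heyl, a Notch target, by 0.21 and 0.13. Nfatc4, which is activated by calcineurin, was higher by 0.69 in F344, and its difference in SHRSP, 0.32, did not pass. Of the other Mef2 genes, Mef2b and Mef2d were measured and passed in no comparison.

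**Figure D3:**
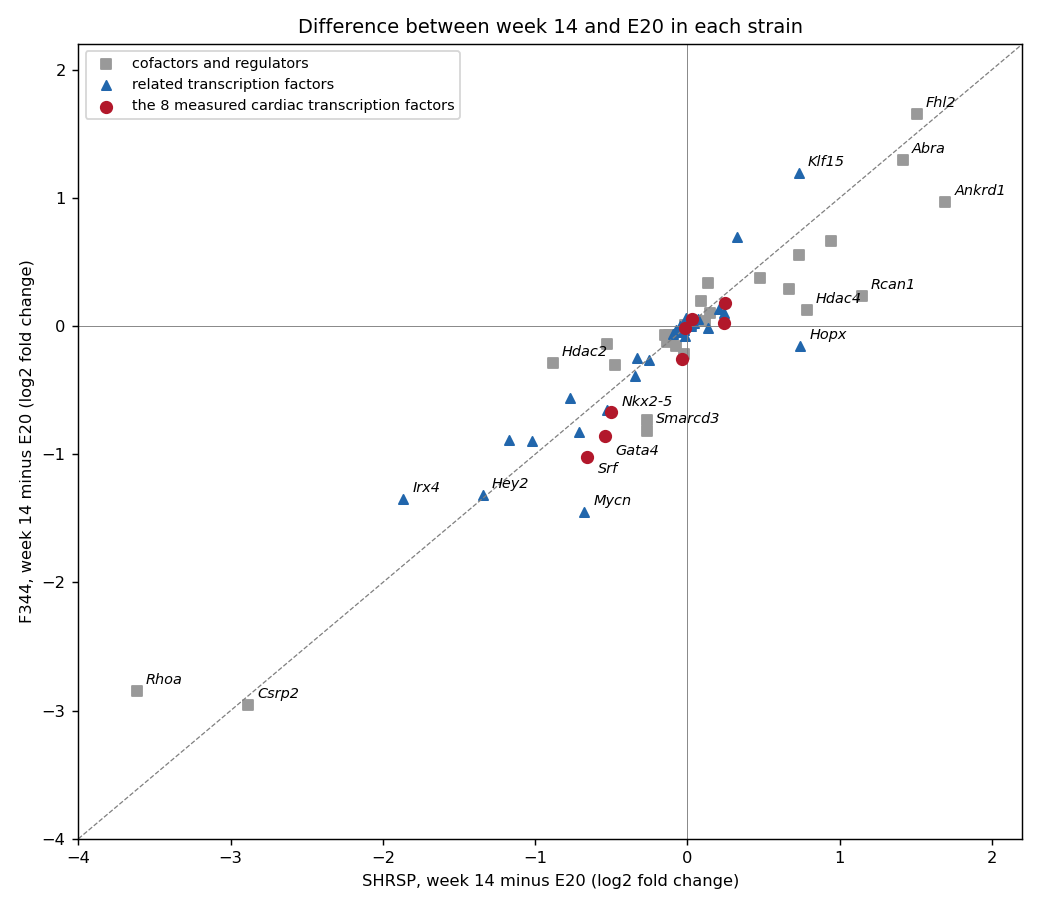
Week 14 minus E20 as log2 fold change in SHRSP (horizontal axis) and F344 (vertical axis) for the 8 measured members (circles), 32 related transcription factors (triangles) and 28 cofactors and regulators (squares), with the dashed line where both strains are equal. Srf lies at -0.66 and -1.02, and Hopx, Rcan1, Hdac4 and Mycn lie away from the line.

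Between strains at week 14, 3 of the 32 related factors were higher in SHRSP and 3 lower, and at E20 1 was higher. The shares over all probes were 8.95% at week 14 and 3.21% at E20, and over those above the median intensity 18.6% and 6.94%. Hopx, a small homeodomain protein without DNA binding that antagonizes Srf, ran from 11.34 to 12.00 with a median of 11.87 in SHRSP at week 14 and from 10.45 to 11.28 with a median of 10.63 in F344 at week 14. The groups did not overlap, and the difference was 1.04 ± 0.109 (SE, adjusted p = 4.75e-08). Mycn, which drives growth of fetal cardiomyocytes, was higher in SHRSP by 0.55 (adjusted p = 0.000303), and Klf13, a partner of Gata4, was higher by 0.31 at week 14 and 0.40 at E20. Klf15 was lower in SHRSP (-0.69, adjusted p = 0.00064), as were Irx4 (-0.68, adjusted p = 0.00185) and Irx3, a homeobox factor of the conduction system (-0.17, adjusted p = 0.0146). The interaction passed for Hopx (0.90, adjusted p = 0.00134), which was higher at week 14 than at E20 in SHRSP by 0.74 and differed by -0.16 in F344. It also passed for Mycn (0.77, adjusted p = 0.00287), which fell by 0.68 in SHRSP and by 1.45 in F344.

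Cofactors and upstream regulators of the members, a list of 41 genes of which 28 were measured, moved in both directions with stage. In each strain 10 were higher and 6 lower at week 14, with medians of -0.01 in SHRSP and 0.01 in F344. Over all probes 32.7% passed in SHRSP and 35.7% in F344. Of the probes above the median intensity 60.8% and 64.0% passed, so the share of cofactors called is near that of bright probes. Rhoa, the GTPase that releases myocardin-related factors through actin, averaged 7.92 ± 0.155 in SHRSP at week 14 and 11.54 ± 0.133 in SHRSP at E20, and 8.23 ± 0.311 in F344 at week 14 and 11.08 ± 0.746 in F344 at E20 (SD). Csrp2, a LIM protein that bridges Srf and GATA factors, fell by 2.88 in SHRSP and 2.96 in F344. In the other direction, Ankrd1, a nuclear and sarcomeric ankyrin protein under Nkx2-5, was higher by 1.69 and 0.97, Fhl2 by 1.51 and 1.65, and Abra, an actin-binding activator of Srf, by 1.42 and 1.29 in SHRSP and F344. Rock2, a kinase downstream of Rhoa, was higher by 0.73 in SHRSP and 0.55 in F344. Mrtfa, the myocardin-related coactivator, fell by 0.53 in SHRSP and differed by -0.14 in F344, which did not pass. Smarcd3, the BAF subunit that links chromatin remodelling to Tbx5, Gata4 and Nkx2-5, fell by 0.82 in F344 and differed by -0.27 in SHRSP (adjusted p = 0.0577).

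Between strains at week 14, 5 of the 28 cofactors were higher in SHRSP and 4 lower, where 8.95% of all probes passed. Of the probes above the median intensity 18.6% passed. Hdac4, a class II deacetylase that represses Mef2, ran from 8.28 to 8.75 in SHRSP at week 14 and from 7.38 to 7.74 in F344 at week 14, with no overlap (0.86 ± 0.063, adjusted p = 3.85e-11). Hdac2, a class I deacetylase that Hopx recruits, was lower in SHRSP, with values of 7.80 to 8.09, against 8.34 to 8.92 in F344 (-0.77 ± 0.084, adjusted p = 1.06e-07). Rcan1, a calcineurin inhibitor and NFAT target, ran from 12.33 to 13.35 in SHRSP and 11.61 to 12.18 in F344 (1.12 ± 0.112, adjusted p = 2e-08). Ppp3ca, a catalytic subunit of calcineurin, was higher by 0.52 (adjusted p = 0.000591). Fhl2 was lower in SHRSP at both stages (-1.04 at week 14 and -0.89 at E20), and so was Csrp1, a LIM protein of smooth muscle (-0.40 and -0.87). At E20, Rock2 was the third gene lower in SHRSP (-0.32), and 0 of 28 were higher. Of all probes 3.21% passed at E20, and of those above the median intensity 6.94%. The interaction passed for 6 of 28, upward for Rcan1 (0.91), Ankrd1 (0.72), Hdac4 (0.66), Smarcd3 (0.55) and Csrp1 (0.47) and downward for Hdac2 (-0.59). It passed for 2.96% of all probes and for 6.46% of those above the median intensity.

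**Figure D4:**
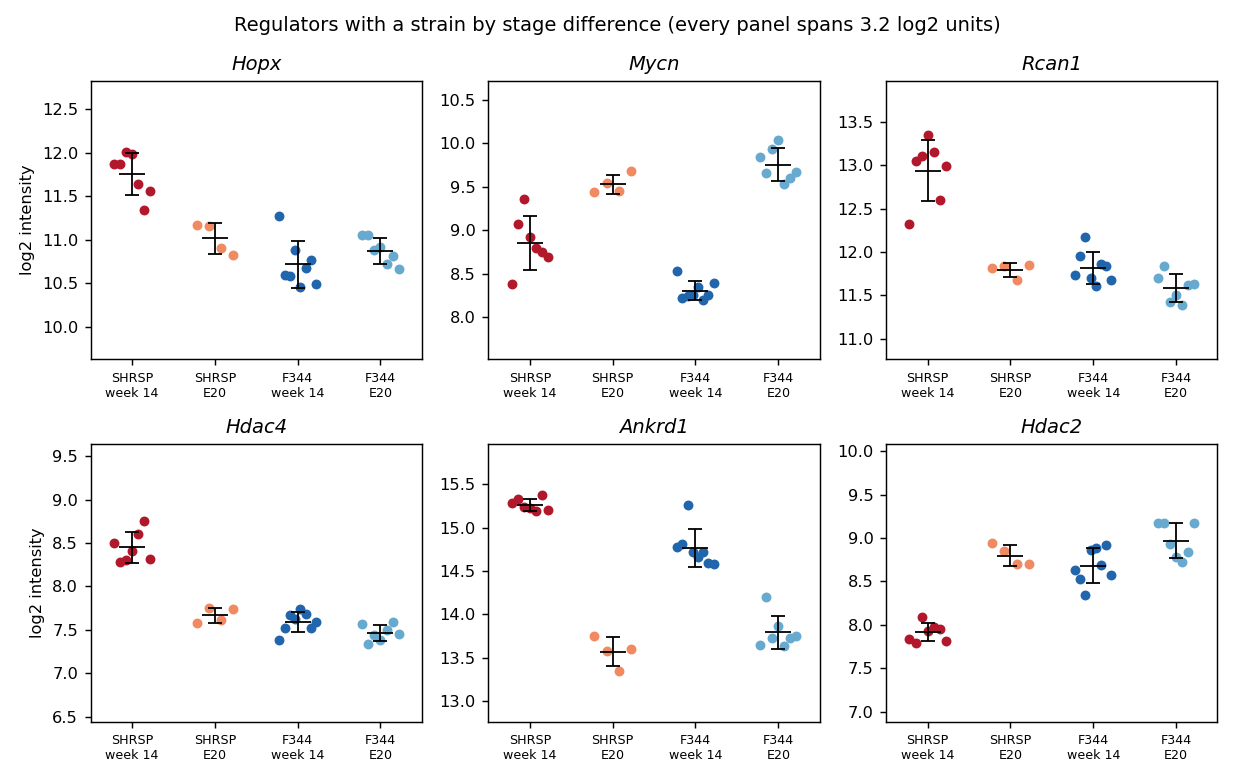
Log2 intensity of Hopx, Mycn, Rcan1, Hdac4, Ankrd1 and Hdac2 on each array (points) by strain and stage, with the mean ± SD of each group in black. In SHRSP at week 14, Hdac4 (8.28 to 8.75) and Hopx (11.34 to 12.00) lie above the other groups and Hdac2 (7.80 to 8.09) lies below them.

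Of 31 cardiac target genes of these factors, 26 were measured, and some of them also stand on the marker lists below. At week 14 against E20, 11 were higher and 5 lower in SHRSP and 9 were higher and 9 lower in F344, with medians of 0.16 and 0.04. Over all probes 32.7% passed in SHRSP and 35.7% in F344, and over those above the median intensity 60.8% and 64.0%. Ryr2, the calcium release channel, was higher at week 14 by 1.84 in SHRSP and 1.49 in F344, and myoglobin (Mb) by 1.31 and 1.43. Gja5, a gap junction protein of atrium and conduction system, fell by 1.52 and 1.95. The sodium-calcium exchanger Slc8a1 fell by 0.26 in SHRSP and 0.35 in F344, and Corin, the protease that activates natriuretic peptides, was higher by 0.91 in SHRSP and 1.03 in F344. Myl7, the atrial myosin light chain, fell by 6.24 in SHRSP and fell by 2.46 in F344. Acta1 fell by 2.67 in F344, and its stage difference in SHRSP, -0.33, did not pass (adjusted p = 0.274). Nppa, which encodes atrial natriuretic peptide, was higher at week 14 by 1.13 in SHRSP and fell by 1.45 in F344. The interaction passed for 4 of the 26 targets, which were Nppa (2.59), Acta1 (2.33), Nppb (1.21) and Myl7 (-3.78). It passed for 2.96% of all probes and for 6.46% of those above the median intensity.

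Among the targets at week 14, the largest differences toward SHRSP were those of Nppa, Acta1 and Nppb, and the largest of all was that of Myl7, which was lower in SHRSP. Nppa ran from 13.48 to 14.76 in SHRSP at week 14 and from 10.62 to 12.20 in F344 at week 14 (2.78 ± 0.196, adjusted p = 2.04e-11). Acta1, whose promoter window is given above, ran from 14.45 to 14.64 in SHRSP and 11.33 to 13.41 in F344 (2.36 ± 0.176, adjusted p = 6.71e-11), and Nppb, which encodes brain natriuretic peptide, was higher by 1.66 (adjusted p = 4.99e-07). Actc1, also shown above with a CArG box, was higher in SHRSP by 0.48 (adjusted p = 3.27e-05), whereas Myl3 differed by 0.01 (adjusted p = 0.971) and Egr1 by 0.20 (adjusted p = 0.641). Fhl2, the remaining gene shown with a CArG box, was lower in SHRSP (-1.04, adjusted p = 9.36e-06). The Actc1 probe averaged 8.96 in SHRSP and 8.48 in F344 at week 14. Myl7 ran from 7.47 to 8.20 in SHRSP and 10.37 to 12.26 in F344 (-3.76 ± 0.196, adjusted p = 5.09e-14), and the calcium store protein Casq2 was lower at both stages (-0.76 at week 14 and -1.40 at E20). In all, 6 of 26 were higher and 2 lower at week 14, with a median of 0.08 against -0.0012 over all probes, of which 4.49% were higher and 4.46% lower. Among probes above the median intensity, 18.6% passed in either direction. At E20 1 was higher, the calcium channel Cacna1c (0.50), and 2 were lower, Casq2 and Gja5 (-0.62). Of all probes 3.21% passed at E20, and of those above the median intensity 6.94%.

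Smooth muscle and immediate early targets of Srf, of which 19 of 23 were measured, moved in both directions with stage. In SHRSP 7 were higher and 4 lower at week 14 (median 0.20), and in F344 8 were higher and 5 lower (median 0.03). Over all probes 32.7% passed in SHRSP and 35.7% in F344, and over those above the median intensity 60.8% and 64.0%. Junb, an AP-1 subunit, was higher at week 14 by 1.93 in SHRSP and 2.21 in F344, and smoothelin (Smtn), a cytoskeletal protein of contractile smooth muscle, by 0.93 and 0.78. Caldesmon (Cald1) was higher by 0.80 in SHRSP and 0.47 in F344, and Fos, another AP-1 subunit, by 0.71 and 0.63. Junb and Fos spread widely among adult hearts. At week 14 Junb ran from 9.13 to 10.91 in SHRSP and from 8.80 to 11.41 in F344. Fos ran from 7.66 to 8.33 in SHRSP and from 7.23 to 9.25 in F344. Beta-actin (Actb) fell by 0.61 in SHRSP and 0.76 in F344, calponin (Cnn1) by 0.57 and 0.59, and filamin A (Flna) by 0.47 and 0.40. Transgelin (Tagln) fell by 0.42 in F344, and its difference in SHRSP, 0.04, did not pass. Between strains 1 of 19 was higher in SHRSP at week 14, the matricellular gene Ccn1 (1.06, adjusted p = 0.000384), 0 of 19 passed at E20 and 0 of 19 passed the interaction. The shares over all probes were 8.95% at week 14, 3.21% at E20 and 2.96% in the interaction.

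Markers of other cell types moved with stage beside the members, where 32.7% of all probes passed in SHRSP and 35.7% in F344. Of 10 cell cycle markers, 9 were lower at week 14 in each strain, and 1, Ccnb1, was higher in F344 (mean 7.025 against 6.931 at E20). The summed intensity of the 10 was 3800 to 4460 in SHRSP at week 14 against 21900 to 27300 in SHRSP at E20. In F344 it was 3970 to 5770 at week 14 against 21000 to 26700 at E20. Of 7 macrophage markers, 7 were higher at week 14 in each strain, with sums of 4110 to 7050 in SHRSP at week 14 against 1700 to 1940 in SHRSP at E20, and 5060 to 8760 in F344 at week 14 against 1530 to 2030 in F344 at E20. Of 6 epicardial markers 4 were lower in each strain, and of 7 erythroid markers 5 were lower in SHRSP and 3 in F344. Of 7 smooth muscle markers, 3 were higher and 1 lower in SHRSP, and 3 were higher and 2 lower in F344. They summed to 20000 to 24600 in SHRSP at week 14 against 10300 to 12800 in SHRSP at E20. In F344 the sums were 21400 to 27100 at week 14 against 11600 to 18800 at E20. These sums mostly follow desmin (Des), the brightest of the 7, which also stands among the cardiac targets. Des averaged 14.25 at week 14 and 13.18 at E20 in SHRSP, and 14.39 and 13.59 in F344. Of 8 endothelial markers, 4 were higher in SHRSP, and 5 were higher and 1 lower in F344. Of 10 fibroblast markers, 5 were higher and 5 lower in each strain. Of 5 endocardial and valve markers, 3 were lower in SHRSP and 4 in F344. They summed to 732 to 796 in SHRSP at week 14 against 1340 to 1680 in SHRSP at E20. In F344 the sums were 782 to 847 at week 14 against 1460 to 1810 at E20. These sums follow Plvap, which averaged 7.67 at week 14 and 9.90 at E20 in SHRSP, and 7.97 and 9.92 in F344. The other markers averaged 6.90 to 7.53 in all groups, near the median of all probes (7.16). The 5 measured atrial markers summed to 12200 to 28500 in SHRSP at week 14 against 22800 to 30100 in SHRSP at E20, and to 3410 to 9290 in F344 at week 14 against 20100 to 27400 in F344 at E20. Within this sum, Nppa was higher and Myl7 lower at week 14 than at E20 in SHRSP, and both were lower in F344. Between strains at week 14, 1 of the 5 atrial markers, Nppa, was higher in SHRSP and 2, Myl7 and Dkk3, were lower. At week 14 against E20, the cardiomyocyte list had 6 of 10 higher in SHRSP, and 5 higher and 1 lower in F344. Between strains at week 14, the cardiomyocyte list had 0 of 10 higher and 1 lower, the smooth muscle list 2 of 7 higher, and the macrophage list 2 of 7 lower. The share over all probes in this comparison was 8.95%, and over those above the median intensity 18.6%. The part of these cell types in the differences of the members was not tested.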

How the data were processed

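Heart RNA of SHRSP and F344 rats was hybridised to Illumina RatRef-12 arrays, 1 array for each of 26 animals. The authors exported probe profiles with GenomeStudio, checked the arrays with lumi, and deposited log2 values after quantile normalization. The sources name no background correction. The log2 values of all 22523 probes were taken as deposited and not filtered on detection, because the names of the 52 raw intensity columns match no sample label.

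Of the probes, 13793 have 1 gene name, 0 several, and 8730 are unnamed here. For 13752 probes the symbol was brought up to date by gene ID, and 41 IDs had no match. The brightest probe stands for its gene.

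A linear model with 4 group means was fitted in limma 3.58.1 under R 4.3.3 (lmFit and eBayes, two-sided), with p-values adjusted over all probes. The labels give no batch. Precision is limited by the array number, and dim probes understate differences. The members and gene lists were chosen with earlier results of these data known. Named are all members and, of each list, up to 3 genes per direction and comparison with the largest fold changes past the adjusted p. Others (Gata5, Tbx18, Mef2b, Mef2d, Mrtfa, Actc1, Myl3, Egr1, and further values of genes so named) were chosen after their values were seen. Promoter windows are those of RefSeq (GRCr8). Each comparison was tested on simulated data: of 50 probes changed by 0.6 on the log2 scale, 46 to 48 were recovered, with 8 to 13 false calls among 22523 probes. The changed probes were drawn at random from all probes. These rates therefore do not apply to smaller differences, such as those of the members between strains, or to members with a wider spread. The alternatives were array weights, limma-trend, a replicate block, a plain t-test per probe (the study's methods use limma for the arrays), a fit to the compared groups alone, other centring, a filter on dim probes and leaving out each array. Python 3.11.15 was used with pandas 2.3.3, NumPy 2.4.6, SciPy 1.17.1 and Matplotlib 3.10.9.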

Additional observations from a re-analysis of the deposited data

Results flagged for a closer look

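Among 32 sets of values (8 genes in 4 groups), 1 held an array far from the rest of its group: Tbx5 in F344 at E20 was 7.17 on the third array, and the next highest value was 7.09. By chance about 1 in 20 such sets is picked out.

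The stage difference (week 14 minus E20) differed between SHRSP and F344 by the interaction test in limma for 12 genes of the lists. This test passed for 2.96% of all probes and for 6.46% of those above the median intensity. The difference was 0.90 for Hopx and 0.77 for Mycn among the related transcription factors. Among the cofactors it was 0.91 for Rcan1, 0.72 for Ankrd1, 0.66 for Hdac4, 0.55 for Smarcd3, 0.47 for Csrp1 and -0.59 for Hdac2. Among the cardiac targets it was 2.59 for Nppa, 2.33 for Acta1, 1.21 for Nppb and -3.78 for Myl7.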

How the results depend on the processing

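The 40 member results (8 genes in 5 comparisons) were recomputed under 9 other settings and without each of the 26 arrays, 1379 values in all, of which 1363 stayed on the same side of the threshold, 13 no longer passed and 3 newly passed. None that passed changed its sign, while 45 values that did not pass took another sign. The mean of all probes of a gene could not differ, since each member has 1 probe. At week 14 the count of members that differ between strains was 2, with a plain t-test per probe 1, and without each array in turn between 1 and 4. In SHRSP the count for week 14 against E20 was 5, and 2 with the plain t-test, which estimates each probe's spread from its own 2 groups. In F344 it was 5, and 4 to 5 without single arrays.

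The labels do not say whether replicate numbers pair the samples. Deviations of arrays of the same number from their group means correlated between -0.229 and 0.408. This range cannot decide the question, since it was not set against arrays of different numbers. With the replicate block the F344 stage count was 4, because Hand2 no longer passed (0.17, adjusted p = 0.0538), and the block changed no other call of a member. Over all probes, array weights raised the count at E20 between strains to 1228, against 723, and the other settings moved the counts of calls by less than 1.5 times.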

Other observations

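Within groups of 7 or 8 arrays, all 28 pairs of the 8 members were correlated in 3 groups, a choice made after the data had been seen. Of these 84 correlations, 11 had an unadjusted exact permutation p under 0.05 and 0 passed after Benjamini-Hochberg adjustment, for Pearson's r as for Spearman's rho. The closest was that of Tbx5 and Srf in SHRSP at week 14, with r = -0.987 (exact permutation p = 0.00079, adjusted p = 0.0667), rho = -0.955 (exact permutation p = 0.00317, adjusted p = 0.133) and r = -0.891 without the 2 arrays farthest from the median of Tbx5. In the same group Gata6 and Tbx5 had r = 0.871 (exact permutation p = 0.00813, adjusted p = 0.208). Gata6 and Srf had r = -0.877 there (exact permutation p = 0.00913, adjusted p = 0.208), opposite in sign to Gata4 and Srf. Gata4 and Srf had r = 0.869 (exact permutation p = 0.00992, adjusted p = 0.208) and rho = 0.847 (exact permutation p = 0.0246, adjusted p = 0.287), and r = 0.897 without the 2 arrays farthest from the median of Gata4. In F344 at week 14 r was 0.267 for Tbx5 and Srf (exact permutation p = 0.54) and 0.368 for Gata4 and Srf (exact permutation p = 0.363). For Gata6 it was 0.649 with Tbx5 (exact permutation p = 0.0832) and 0.107 with Srf (exact permutation p = 0.822). The first SHRSP array of week 14 had the lowest Srf (10.96) and Gata4 (8.58) and the highest Tbx5 (7.68), Gata6 (9.42) and Nkx2-5 (9.47) of its group.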
